A study of Mus musculus with 18 samples.

Results

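Cathepsins are the proteases of the lysosome, the acidic compartment in which cells break down proteins. Most of them are cysteine proteases (cathepsins B, C, F, H, K, L, S and Z), whereas cathepsin D is an aspartic protease and cathepsin A a serine carboxypeptidase. They are made as inactive precursors, are sorted to the lysosome largely by mannose 6-phosphate receptors, and are held in check outside it by cystatins and other inhibitors. Cathepsin K, best known from the osteoclast, cuts the triple helix of collagen and is also made by fibroblasts. Expression of 10 cathepsin genes (Ctsa, Ctsb, Ctsc, Ctsd, Ctsf, Ctsh, Ctsk, Ctsl, Ctss and Ctsz) was read among 15964 genes with a probe set of their own, at 20 probe sets of 36701 on 3 Affymetrix chip types, with 15 on MG_U74Av2, 2 on MG_U74Bv2 and 3 on MG_U74Cv2. The members were chosen by gene symbol, with measured differences between the groups compared here already known, so that the calls below describe these arrays and support nothing further.

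The cells were stromal cells from the marrow of adult mice, sorted by CD34, a surface sialomucin, and grown in DMEM with fetal bovine serum as colonies that each began with 1 cell. The groups were CD34+ clones (3 RNAs) and CD34- clones (3 RNAs), and each RNA was hybridised to 1 array of each chip type. The labels name no strain, age in weeks, allele or treatment for either group, give other marrow cells as the possible contaminant, and leave unstated how many clones the 3 RNAs of a group represent. If each group was 1 clone, clone and CD34 status cannot be told apart. The p-values are set by how much the RNAs of a group differed, and that variation may be technical only. In such bulk RNA, fewer cells of a type and less RNA per cell cannot be told apart. Levels are quantile-normalized signals in intensity units, and differences are CD34+ minus CD34- on the log2(signal + offset) scale, where dim probe sets show less than their true change.

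Cd34 itself read 787 to 938 in CD34+ RNAs and 59.9 to 172 in CD34- RNAs at 1 of its probe sets (log2 difference 2.50, limma adjusted p = 0.000374), which checks the labels. The groups had been deposited on unlike scales, with array medians on MG_U74Av2 of 553 to 576 in CD34+ and 28 to 41.3 in CD34-, and were therefore normalized. On MG_U74Av2, the chip type with most cathepsins, the ratio of 3′ to 5′ signal differed between the groups without overlap, at 0.747 ± 0.0406 in CD34+ against 0.818 ± 0.0148 in CD34- for Gapdh (SD, n = 3 each) and 1.07 ± 0.0311 against 1.15 ± 0.05 for actin. The RNA concentrations in the labels did not overlap either (0.421 to 0.721 against 0.989 to 1.38 µg/µl). The part of either in the differences below was not tested.

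Of the cathepsins, 4 were lower in CD34+ clones and 0 higher. Ctsk fell most, Ctsb fell at each of its 3 tested probe sets, and Ctsd and Ctsa fell by less. Ctsl, a broad lysosomal endopeptidase, and Ctsz, a carboxypeptidase, lay at the same level in both groups to within the spread between RNAs, and Ctsh, an aminopeptidase, and Ctsf did not pass the test. Ctsc, which activates the serine proteases of white blood cells, and Ctss, which trims the invariant chain in antigen-presenting cells, gave only dim signals. In all, 11 of 20 probe sets, of 8 genes, passed the filter on low values: on 3 or more of the 6 arrays, a deposited signal exceeding that array's 40th percentile. Each of the 11 was above that level on all 3 CD34- arrays, which alone meets the filter. Ctsk 160406_at, Ctsb 92256_at and Ctsf 164427_f_at were above it on 2 CD34+ arrays, and the others on all 3. Those named would not have passed on the CD34+ arrays alone.

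On MG_U74Av2, 6 of 9 tested cathepsin probe sets were called lower and 0 higher at a limma adjusted p under 0.05. Over all 7634 probe sets tested there, 6.69% were called lower and 14.9% in either direction. The groups did not overlap, with CD34+ below CD34-, in the same 6 cathepsin probe sets, against 15.7% of all tested. The median log2 difference was -0.67 over the 9 cathepsin probe sets and 0.01 over all tested. Adding 1 common offset (17.6) to the deposited signals of both groups and then centring each array's log2 values on their median also called 6, but 4 lower and 2 higher, with Ctsa and Ctsd no longer called and Ctsl and Ctsz called higher. Under that setting, named centring with an offset below, the median of all tested probe sets lay at 0.26. Centring without an offset, and scaling the arrays to a common median, called the same 6 lower and 0 higher.

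**Figure D1:**
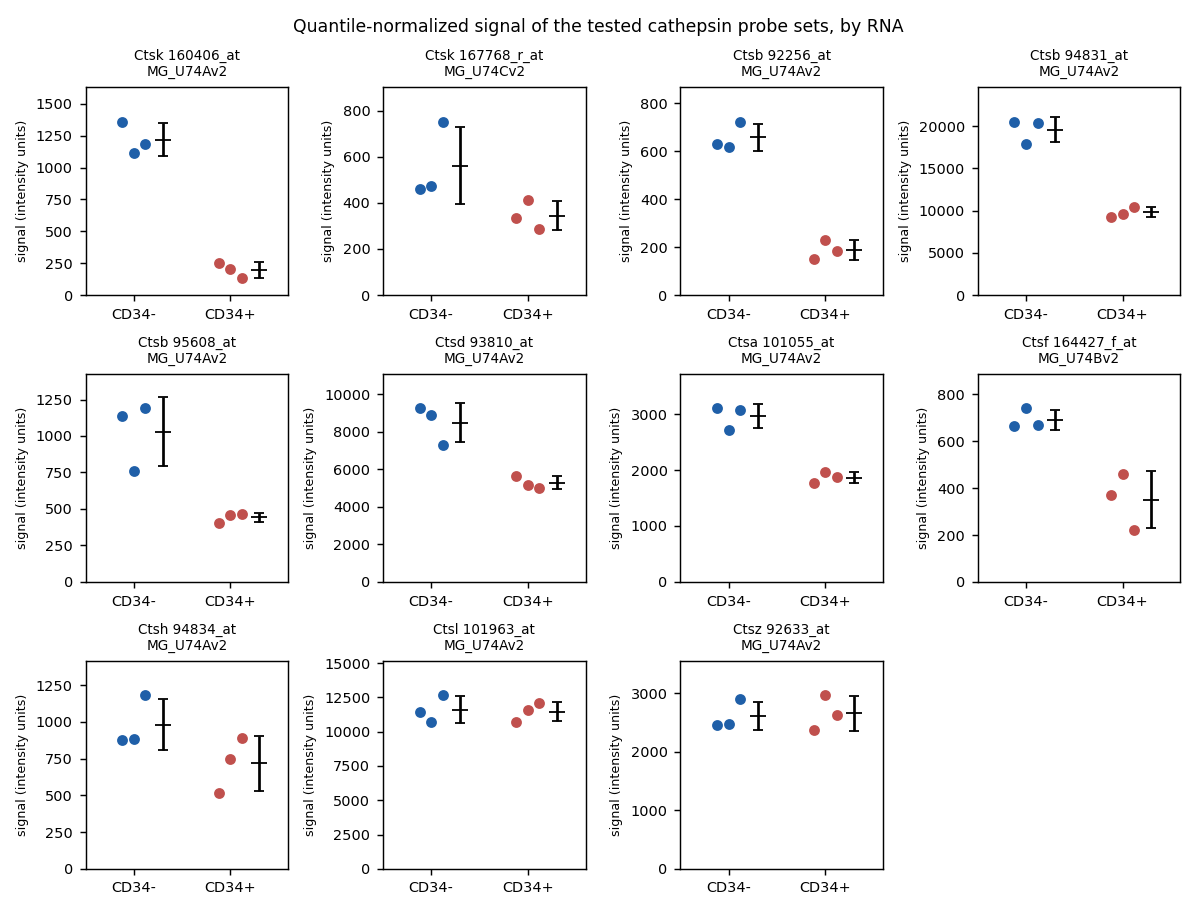
Quantile-normalized signal (intensity units, linear axes from 0) of the 11 tested cathepsin probe sets in each RNA, CD34- in blue and CD34+ in red, with the mean and SD of each group in black (n = 3). CD34+ RNAs lie below all CD34- RNAs in 8 panels, and the groups overlap for Ctsh, Ctsl and Ctsz. Of the 8, 6 are on MG_U74Av2, where 15.7% of all tested probe sets separated in this way. That share was not counted on the other chip types.

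Ctsk showed the widest gap between the groups. Its probe set on MG_U74Av2 (160406_at) read 1360.5, 1113 and 1186 in the CD34- RNAs and 255, 205 and 133 in the CD34+ RNAs. Every CD34+ value lay far below the lowest CD34- value, and the CD34+ mean was 16.2% of the CD34- mean (198 ± 61.1 against 1219.8 ± 127, SD, n = 3 each). The log2 difference was -2.38 (95% confidence interval -2.83 to -1.93, limma adjusted p = 0.000143), or 5.20-fold on the offset scale. A further probe set of Ctsk on MG_U74Cv2 (167768_r_at) read 459, 474 and 753 in CD34- and 335, 414 and 286 in CD34+. The groups did not overlap there either, but the gap was far narrower (log2 difference -0.56, interval -1.30 to 0.19) and did not pass the test (limma adjusted p = 0.707). How many probe sets of that chip type separated in this way was not counted. The intervals of the Ctsk probe sets do not overlap, so the arrays give no single size for the Ctsk difference. On MG_U74Cv2, which held no called cathepsin, 0.0936% of 7481 tested probe sets were called, and 661 had an unadjusted p under 0.05, of which 0 belonged to a cathepsin.

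Ctsb encodes cathepsin B, an abundant cysteine protease that can cut both within proteins and from their ends. At its brightest probe set (94831_at) the CD34- RNAs read 20561, 17885 and 20349, and the CD34+ RNAs 9294, 9642 and 10447. The CD34+ RNAs thus lay close together at 49.97% of the CD34- mean (log2 difference -0.996, interval -1.18 to -0.81, limma adjusted p = 0.000132). At 92256_at the values were 629, 618 and 723 in CD34- against 149, 230.1 and 182 in CD34+ (log2 difference -1.58, interval -1.99 to -1.17, adjusted p = 0.000727). At 95608_at they were 1140.3, 758 and 1189 against 404, 457 and 464 (log2 difference -1.11, interval -1.51 to -0.70, adjusted p = 0.00398). CD34- RNA 2 gave the lowest CD34- value at all 3 probe sets, and at 95608_at this widened the spread of that group while leaving it above all CD34+ RNAs. The 3 probe sets therefore gave the same direction, with CD34+ means at 28.5% to 49.97% of the CD34- means. A remaining Ctsb probe set (162271_f_at, of a kind whose probes can match related sequences) was dim, read 28.2 to 146 in CD34+ and 72.3 to 180.2 in CD34-, and was not tested.

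Ctsd encodes cathepsin D, the main aspartic protease of the lysosome. It read 9254, 8919 and 7326 in the CD34- RNAs and 5671, 5193 and 4997 in the CD34+ RNAs (log2 difference -0.67, interval -0.91 to -0.44, limma adjusted p = 0.00326). CD34- RNA 3 was the lowest of its group and still above every CD34+ RNA. Ctsa encodes cathepsin A, also called protective protein, a carboxypeptidase that stabilises the lysosomal sialidase and beta-galactosidase. Its values were 3101, 2718 and 3071 in CD34- against 1760.3, 1967 and 1868 in CD34+, again without overlap (log2 difference -0.65, interval -0.88 to -0.42, adjusted p = 0.00341). CD34+ means were 62.2% of CD34- means for Ctsd and 62.9% for Ctsa. Both calls were lost only with centring with an offset, where the log2 difference was -0.16 for each (adjusted p = 0.301 for Ctsd and 0.261 for Ctsa), or -0.425 and -0.421 relative to the median of all tested probe sets. Centring without an offset kept both, at -0.68 for Ctsd (limma adjusted p = 0.00374) and -0.63 for Ctsa (adjusted p = 0.00891).

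Ctsl read 11476, 10726 and 12658 in CD34- and 10726, 11585 and 12087 in CD34+, so that the values interleaved. Its log2 difference was -0.02, with an interval of -0.21 to 0.17 that leaves out falls of the size seen for Ctsa, Ctsb, Ctsd and Ctsk on this chip type (limma adjusted p = 0.913). Ctsz read 2459, 2479 and 2895 in CD34- and 2371, 2965 and 2628 in CD34+ (log2 difference 0.02, interval -0.24 to 0.29, adjusted p = 0.924). The groups overlapped fully for both genes. In centring with an offset both were called higher (Ctsl 0.45, adjusted p = 0.00734; Ctsz 0.52, adjusted p = 0.00779), or 0.19 and 0.26 relative to the median of all tested probe sets. Without the offset neither was called (-0.069, adjusted p = 0.772, and 0.058, adjusted p = 0.831). Ctsh read 874, 887 and 1181 in CD34- and 518, 745 and 889 in CD34+, where the highest CD34+ RNA reached into the CD34- range (log2 difference -0.44, interval -0.90 to 0.01, adjusted p = 0.181).

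**Figure D2:**
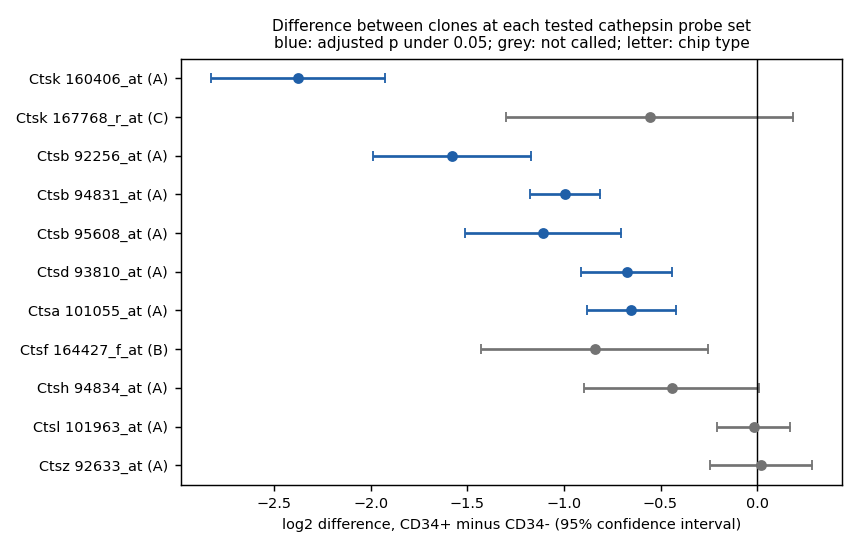
Log2 difference, CD34+ minus CD34-, with its 95% confidence interval at each tested cathepsin probe set, the letter naming the chip type. Called probe sets (blue) run from -2.38 for Ctsk to -0.65 for Ctsa, whereas Ctsl and Ctsz sit at -0.02 and 0.02.

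Ctsf, a cysteine protease with an unusually long propeptide, was measured at a dim and a brighter probe set. On MG_U74Bv2 (164427_f_at, again of the kind that can match related sequences) it read 664, 739.8 and 671 in CD34- and 371, 459.7 and 220.3 in CD34+. The groups did not overlap, but the CD34+ RNAs scattered (CV 34.5% against 6.05% in CD34-) and the difference did not pass the test over 7737 probe sets (log2 difference -0.84, interval -1.43 to -0.25, unadjusted p = 0.0102, limma adjusted p = 0.156). On that chip type 0 of 1 tested cathepsin probe sets was called by limma, against 1.09% of all tested. The share of all probe sets there whose groups did not overlap was not counted. The Ctsf probe set on MG_U74Av2 (97336_at) was not tested and overlapped, at 79.3 to 118 in CD34+ and 72.9 to 102 in CD34-.

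Ctss and Ctsc, both best known from cells of the blood lineage, did not pass the filter at any probe set. Ctss read 69.2, 101 and 74.1 in CD34+ RNAs and 52.0, 106 and 78.8 in CD34- RNAs. All 6 Ctsc probe sets were dim: 16.0 to 73.7 in CD34+ against 12.2 to 80.3 in CD34- on MG_U74Av2 (3 probe sets), 86.1 to 109.6 against 81.0 to 187 on MG_U74Bv2 (1 probe set) and 23.3 to 214 against 17.9 to 97.4 on MG_U74Cv2 (2 probe sets). At each of the 9 untested cathepsin probe sets the groups overlapped. Detection calls were not used here, so whether these genes were expressed was not determined.

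**Figure D3:**
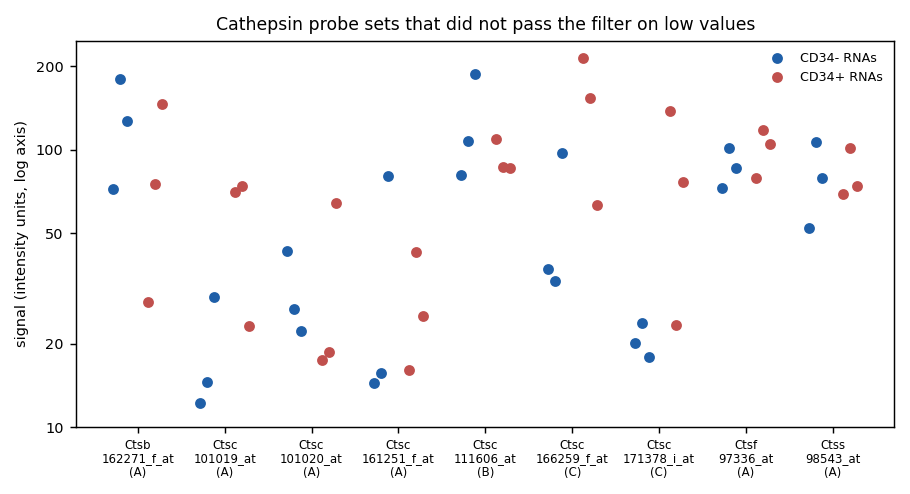
Quantile-normalized signal (intensity units, log axis) of the 9 cathepsin probe sets that did not pass the filter, for each RNA, CD34- in blue and CD34+ in red, the letter naming the chip type. The values lie between 12.2 and 214, and the groups overlap at every one of these probe sets.

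The start regions of Ctsk and Ctsd are shown because both genes fell and only the Ctsd window holds the motif searched here. Windows from 250 bases before to 50 after an annotated start were matched in RefSeq (GRCm38.p6) for 8 of the 10 genes, all but Ctsb and Ctsh, as 9 windows. Each is printed 5′ to 3′ on the strand of the gene, from 250 bases before the start to the base before it, with CACGTG in capitals; CACGTG is the core of the element through which TFEB and its relatives are known to act on lysosomal genes. The Ctsk sequence is chr3:95498960-95499209 on the + strand and the Ctsd sequence chr7:142387828-142388077 on the - strand. For Ctsa the 29 bases that hold its pair of matches are given (chr2:164833758-164833786, + strand), from a start that lies 901 bases inside the gene as annotated.
Ctsk: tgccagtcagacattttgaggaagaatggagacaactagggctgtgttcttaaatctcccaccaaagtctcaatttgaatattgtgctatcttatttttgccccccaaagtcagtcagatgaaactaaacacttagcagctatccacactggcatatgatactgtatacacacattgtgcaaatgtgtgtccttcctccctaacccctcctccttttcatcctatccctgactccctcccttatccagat
Ctsd: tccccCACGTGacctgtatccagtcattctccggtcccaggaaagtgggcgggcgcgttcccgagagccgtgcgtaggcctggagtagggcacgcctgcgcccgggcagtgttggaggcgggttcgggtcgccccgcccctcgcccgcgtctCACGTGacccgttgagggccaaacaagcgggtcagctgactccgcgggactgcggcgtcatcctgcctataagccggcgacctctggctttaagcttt
Ctsa: tgtCACGTGatgcagatgctCACGTGacc

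The motif CACGTG, which reads the same on both strands, was present in 4 of 9 cathepsin windows against 7.15% of 32851 windows in the table. It began at -245 and -98 from the start in Ctsd, at -12 and 6 in the inner start of Ctsa, at -79 in Ctsf and at -236 in Ctsl, whose start lies 252 bases inside the gene. It was thus found in Ctsd and Ctsa (inner start only), which fell, and in Ctsl and Ctsf, which were not called. The outer window of Ctsa, at the annotated gene start, and the window of Ctsk, the gene with the largest fall, hold no match. TGANTCA, the letters of the AP-1 site, was found in 0 of 9 windows (7.81% of all), and GGGCGG on either strand in 5 of 9 (35.7% of all). Matches to different motifs did not overlap. Ctsk and Ctss neighbour each other on chromosome 3, with no other protein-coding gene between them in the annotation, where Ctsk was called and Ctss was too dim to test.

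Of 19 other cathepsins and related lysosomal genes, 16 had a probe set with a single gene symbol, 8 were tested, 4 fell and 0 rose (median log2 difference -0.415, against 0.02 over 11969 tested genes, of which 3.51% fell and 4.39% rose). Dpp7, a dipeptidyl peptidase, went from 1696 ± 139 to 941 ± 44.6 (log2 difference -0.81, limma adjusted p = 0.002), and Cpq, a plasma glutamate carboxypeptidase, from 1140.2 ± 80.7 to 667 ± 109 (-0.74, adjusted p = 0.00985). Dpp7 kept its call in 14 of 14 alternative settings and Cpq in 13, with -0.37 (adjusted p = 0.075) in centring with an offset. Scpep1, a serine carboxypeptidase related to cathepsin A, fell by 0.53, and Tinagl1, a secreted cathepsin-like protein without protease activity, fell by 0.88. Scpep1 and Tinagl1 each kept their call in 9 of the 14 settings. Lgmn, legumain, which processes several cathepsins, differed by -0.30 (interval -0.62 to 0.02, adjusted p = 0.192). Of the cathepsins outside the 10 members, Ctse and Ctso were tested and not called (0.03 and 0.02). Tpp1 was counted as not called from its probe set on MG_U74Av2, where the groups overlapped (-0.07, adjusted p = 0.729). On MG_U74Bv2 a Tpp1 probe set was called lower (log2 difference -1.12, limma adjusted p = 0.0424). Another there lay lower without overlap and was not called (-0.99, adjusted p = 0.0869). Both are of the kind that can match related sequences. The Tpp1 call was not read in the other settings.

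Of 19 listed genes for cathepsin inhibitors 14 were on the arrays and 9 tested, and 1 fell and 0 rose (median log2 difference -0.04). Cst3, cystatin C, the main secreted inhibitor of cysteine cathepsins, read 15816 ± 338 in CD34- and 15416 ± 682 in CD34+ (log2 difference -0.04, interval -0.18 to 0.11, limma adjusted p = 0.734). Cstb, the cytosolic cystatin B, read 11512 ± 322 and 12501 ± 1291 (0.11, interval -0.08 to 0.31, adjusted p = 0.422). The member that fell was Kng1, kininogen, by 0.59 (adjusted p = 0.0282), and it kept its call in 9 of 14 settings. Serpinb6b on MG_U74Bv2 (-0.94, adjusted p = 0.0692) and Ctla2b (-0.39, adjusted p = 0.322) lay lower in CD34+ without overlap and were not called. Serpinb3a on MG_U74Cv2 lay higher in CD34+ without overlap at its brightest probe set (0.80, not called). Its others there overlapped, at 0.63 and -0.70.

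Among genes that deliver enzymes to the lysosome, 14 of 16 were tested, 3 fell and 0 rose (median log2 difference -0.13). Psap, prosaposin, a carrier of sphingolipid activators that binds procathepsin D, went from 11260.2 ± 454 to 7498 ± 556 (log2 difference -0.59, adjusted p = 0.00183), although its other probe sets differed by -0.19 and -0.21 and were not called. The Psap call was kept in 13 of 14 settings and lost in centring with an offset (-0.11, adjusted p = 0.415). Gga2, a sorting adaptor of the Golgi, and Lrp1, an endocytic receptor, fell by 0.60 and 0.31, in 8 and 2 of 14 settings respectively, and Lrp1 was at 0.23, not called, in centring with an offset. The mannose 6-phosphate receptors did not pass the test: Igf2r differed by -0.38 (interval -0.68 to -0.08, adjusted p = 0.0894) and M6pr by 0.08 (interval -0.83 to 0.99). In the complex of cathepsin A, Glb1, the beta-galactosidase, fell by 0.47 (adjusted p = 0.0179, called in 10 of 14 settings), while Neu1, the sialidase, differed by -0.13 (interval -0.52 to 0.25, adjusted p = 0.646) and Galns by -0.05.

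The list of lysosomal gene regulators also held the membrane proteins Lamp1 and Lamp2, and these were its members that fell (2 of 4 tested, 0 rose, median log2 difference -0.49). Lamp2 went from 5767 ± 523 to 3331 ± 335 (log2 difference -0.78, adjusted p = 0.00181), and its other probe sets differed by -0.79, which was called, and by -0.65 and -0.13 on MG_U74Cv2, which were not. The Lamp2 call was lost in centring with an offset (-0.26, adjusted p = 0.13). Lamp1 went from 32713 ± 476 to 24427 ± 338 (-0.42, adjusted p = 0.00103), kept its call in 11 of 14 settings and was at 0.16, not called, in centring with an offset. Of the transcription factors, Tfe3 differed by -0.56 at its brightest probe set (adjusted p = 0.0913) and by -0.08, 0.30 and -0.03 at the others, and Tfeb and Mitf did not pass the filter.

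**Figure D4:**
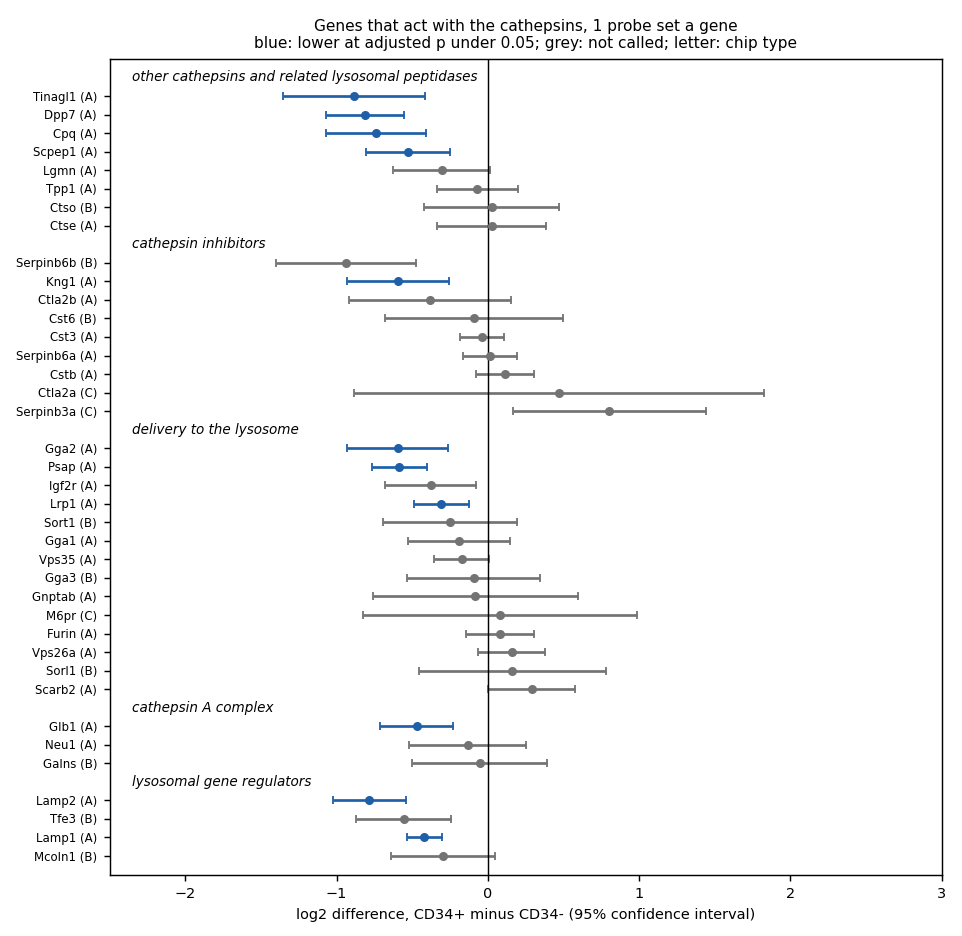
Log2 difference, CD34+ minus CD34-, with its 95% confidence interval, for the tested genes of the 5 lists, 1 probe set a gene, the letter naming the chip type. Genes called lower are blue and number 4, 1, 3, 1 and 2 from the top list to the bottom one, and no gene was called higher.

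Several cathepsins are abundant in macrophages, osteoclasts and other marrow cells, so their markers were read beside the result. Of 16 macrophage and monocyte markers, 7 were tested and 0 were called in either direction. The summed signal of the 6 tested on MG_U74Av2 overlapped between the groups (3489.9 to 3934 in CD34+, 3166 to 4289 in CD34-). The 9 others, among them Adgre1, Itgam, Lyz2, Tyrobp and the pan-leukocyte gene Ptprc, did not pass the filter; Lyz2 read at most 15.4 and Ptprc at most 28.9. Fcer1g, also below the filter, lay lower in CD34+ without overlap at both probe sets (27.4 ± 4.55 against 61.9 ± 11.02 and 38.1 ± 8.63 against 122 ± 65.6). Msr1, below the filter too, lay higher in CD34+ without overlap at a probe set (133.7 ± 52.0 against 58.5 ± 20.9) and overlapped at its other. An untested probe set of Cd68 also lay higher in CD34+ without overlap (26.4 ± 13.9 against 11.9 ± 0.964), while its tested probe set overlapped. Of 10 osteoclast markers 7 were on the arrays, 4 were tested and 0 were called, with Calcr, Itgb3 and Mmp9 below the filter. The summed signal of the 2 tested on MG_U74Av2, Nfatc1 and Tnfrsf11a, was 388 to 596 against 304 to 433, which leaves out Acp5. Acp5, the tartrate-resistant phosphatase, lay lower in CD34+ without overlap on MG_U74Bv2 (733 ± 152 against 1611 ± 888, log2 difference -0.93, adjusted p = 0.19), and was not called. Its other probe set was below the filter and overlapped (72.0 ± 61.2 in CD34+ against 55.0 ± 27.8). The median log2 difference of the 4 tested osteoclast markers was 0.273. Nfatc1 lay higher in CD34+ without overlap on MG_U74Av2 (log2 difference 0.48, adjusted p = 0.176). On MG_U74Bv2 Nfatc1 differed by -0.66 and 0.34, each without overlap and not called. Mmp9 lay higher in CD34+ without overlap on MG_U74Cv2 (192 ± 105 against 61.4 ± 39.1) and overlapped on MG_U74Av2. Neutrophil granule markers gave 3 tested and 0 called (summed signal 922 to 1221 in CD34+ against 1211 to 1490.3 in CD34-), and of the endothelial markers only Pecam1 was tested and not called (78.1 to 250.1 against 289 to 385). Of the lymphoid and antigen-presenting markers 4 were tested (summed signal of the 3 on MG_U74Av2 727 to 746 against 857 to 1095) and 1 fell, Cd74, the invariant chain (223 ± 48.7 against 466 ± 81.4, log2 difference -0.92, adjusted p = 0.0165). The Cd74 call was kept in 11 of 14 settings; leaving out the first or the second CD34+ RNA, or the second CD34- RNA, gave adjusted p = 0.0525, 0.0635 and 0.0569 in limma. Of the stromal markers 7 of 11 tested fell and 1 rose, where 3.51% of all tested genes fell and 4.39% rose. The summed signal of the stromal markers was 75711 to 81792 in CD34+ against 134949 to 149640.0 in CD34-. The largest falls were in the collagens Col3a1 (-1.81) and Col1a1 (-1.10), the matrix protein Postn (-1.13) and the receptor Pdgfra (-1.16), each called in 14 of 14 settings. Cd44, the hyaluronan receptor, rose from 1131 ± 151 to 1611.5 ± 120.1 (log2 difference 0.50, adjusted p = 0.0339), a call kept in 7 of 14 settings. In centring with an offset 4 of the 7 kept their call, while Col1a2 (-0.13), Itgb1 (0.086) and Eng (0.12) were not called. Cd44 stood at 0.91 there. Stromal markers not called as reported were not read in the other settings. Col1a2 kept its call in 13 of 14 settings, Itgb1 in 9 and Eng in 7. The part of these markers in the cathepsin differences was not tested.

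The fluidics stations, the machines that wash and stain the arrays, each held both groups on MG_U74Av2. With the station as a block the same 6 cathepsin probe sets were called, and within station 2 (2 arrays against 2) 6 were called as well. There Ctsk differed by -2.56, the Ctsb probe sets by -1.40, -0.92 and -0.94, Ctsd by -0.83 and Ctsa by -0.60. Within station 1 (1 array against 1, with no test) the corresponding differences were -2.02 for Ctsk, -1.95, -1.13 and -1.45 for Ctsb, -0.37 for Ctsd and -0.79 for Ctsa. Thus each of the 6 was lower in CD34+ within either station. Leaving out any 1 RNA kept all 6 called, with log2 differences of -2.55 to -2.18 for Ctsk. On MG_U74Bv2 and MG_U74Cv2 all CD34+ arrays were on station 1, and station 2 held CD34- arrays only. Group and station thus cannot be fully told apart on these chip types. With the station as a block, Ctsf on MG_U74Bv2 differed by -0.79 (limma adjusted p = 0.593). Ctsk on MG_U74Cv2 differed by -0.34 in that fit (adjusted p = 0.931).

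**Figure D5:**
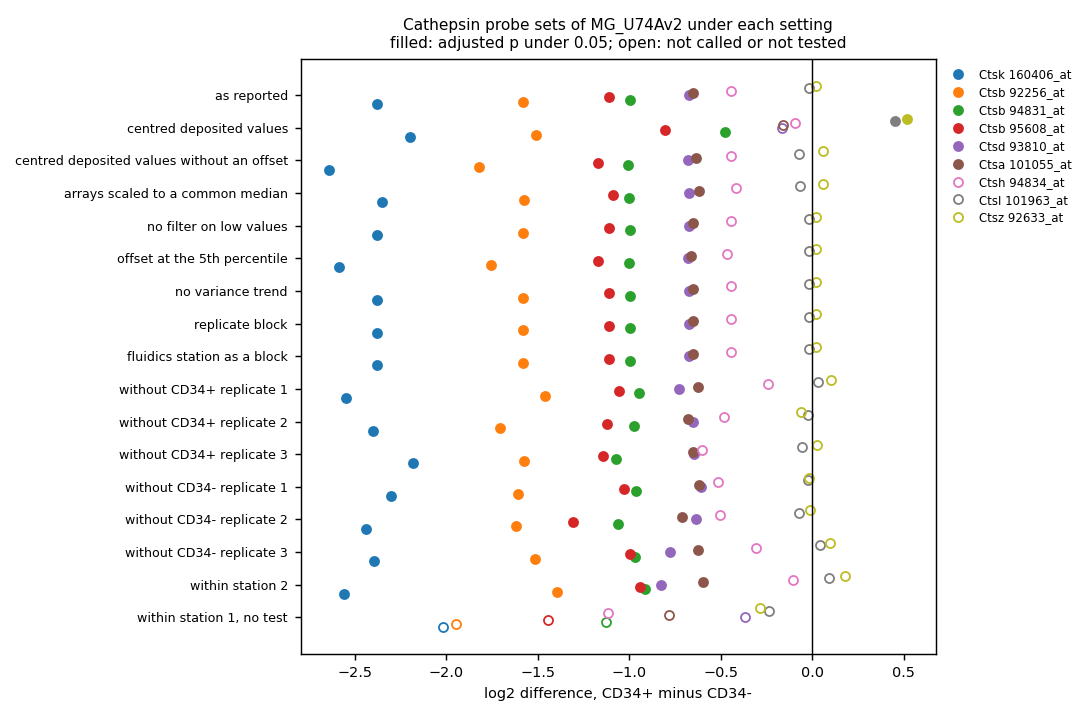
Log2 difference, CD34+ minus CD34-, of the 9 tested cathepsin probe sets of MG_U74Av2 under each setting, filled where called. Ctsk and the Ctsb probe sets stay filled on the left in every tested setting, Ctsa and Ctsd are open with centred deposited values (the setting with an offset), where Ctsl and Ctsz are filled at 0.45 and 0.52, and all are open within station 1, which allows no test.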

How the data were processed

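The data are Affymetrix arrays of 3 chip types, each hybridised with the same 6 RNAs. The authors deposited 1 intensity per probe set, made with MAS 5 per the submitters' processing notes, whose version is not given in the sources used here; CD34+ arrays were scaled to a trimmed mean near 1500.0 and CD34- arrays were not. The deposited array records also name the fluidics station. For each chip type 66 control probe sets were left out, the arrays were quantile normalized, an offset at the 20th percentile (51.5, 106 and 97.9 on MG_U74Av2, MG_U74Bv2 and MG_U74Cv2) was added and log2 was taken. Probe sets above the filter were fitted with limma 3.58.1 (R 4.3.3, lmFit and eBayes with a variance trend), and p-values were adjusted by Benjamini-Hochberg over all tested probe sets of a chip type. The procedure was tested on simulated data. Having 3 arrays a group limits the precision, and the 3 RNAs of a group may be technical repeats of 1 clone. An exact permutation test of 3 against 3 cannot go below 0.1, so none is given. Probe sets carry the platform annotation's gene symbols, and only those with a single symbol were named. All probe sets of the cathepsins are reported; of each list the called genes are named, up to the 4 with the largest difference in each direction, or all where 5 or fewer were called, and direct partners of a cathepsin also where not called. A listed gene is represented by its brightest tested probe set on the first chip type with one. Over all 11969 genes tested in this way 3.51% fell and 4.39% rose, which is the share to set beside the count of each list. Some other listed genes are named where their probe sets separated the groups or differed from each other. Members and lists were chosen with earlier results of these data known. Promoter sequences are RefSeq's.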

Additional observations from a re-analysis of the deposited data

How the results depend on the processing

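On MG_U74Av2 the count of cathepsin probe sets called was 6 in each of the 15 tested settings, and these were the 6 lower ones in all but the centring of deposited signals with a common offset, where 4 were lower and 2 higher. Ctsk and the 3 Ctsb probe sets kept their call throughout, with Ctsk at -2.64 to -2.18. Under that centring Ctsa and Ctsd (-0.16 each) lost their call, Ctsl turned to 0.45 and Ctsz rose to 0.52; centring without an offset, an alternative chosen after seeing the data like the fits within stations, kept all 6. Ctsl was 0.091 within station 2. Leaving out 1 RNA at a time gave -0.074 to 0.046 for Ctsl and -0.060 to 0.10 for Ctsz, and Ctsz was -0.28 within station 1. The centred settings differ only in the offset of 17.6. It was added to deposited signals with array medians of 28 to 41.3 in CD34- and 553 to 576 in CD34+. The offset is thus a far larger part of the signal on CD34- arrays. The cause of the other changes was not tested. Ctsh, Ctsf on MG_U74Bv2 and Ctsk on MG_U74Cv2 were not called in any setting, and leaving out 1 RNA gave -0.60 to -0.24, -1.03 to -0.61 and -0.66 to -0.36. With a replicate block 6 cathepsin probe sets were called on MG_U74Av2 and 0 on each of the others. Deviations of same-numbered RNAs from their group means correlated at -0.05 to 0.07. With 3 RNAs a group, this cannot decide whether same-numbered RNAs were paired. Over all probe sets the calls ranged from 623 to 3029 on MG_U74Av2 (1138 as reported), 0 to 1997 on MG_U74Bv2 (84) and 0 to 86 on MG_U74Cv2 (7). Dim signals limit what can be said of Ctsc and Ctss.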
